A study of Mus musculus with 12 samples.

Results

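H19, Igf2, Meg3, Dlk1, Peg3, Mest, Grb10, Plagl1, Ndn and Cdkn1c are 10 imprinted genes, for each of which a single parental copy is mainly used and which are known for acting on growth before and after birth. They were picked by name from a table of read counts, where each matched a single row of 25210 genes, and all 10 passed the filter on low counts that left 15316 genes to test. The organoids were primary mammary epithelium of virgin female FVB/N mice of 8 to 11 weeks, embedded in growth-factor reduced Matrigel with minimal medium. They were kept for 7 days with the vehicle dimethyl sulfoxide (DMSO) or with CHIR99021 at 1, 1.5 or 3 µM, a GSK3 inhibitor given to switch on WNT/CTNNB1 signalling. A culture was set up from each of 3 animals and split over the 4 treatments, giving 12 libraries of polyadenylated RNA with 10.1 to 24.5 M counts (M, mega). The question was how these genes move as the pathway is driven harder.

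Imprinted genes carry DNA methylation at control regions that was set in the egg or the sperm, and the marked and unmarked copies then differ in activity. Many genes expressed from the father's copy favour fetal growth and many from the mother's copy restrain it. Igf2 (paternal copy) and H19 (maternal copy) lie side by side under a shared control region, and so do Dlk1 (paternal) and Meg3 (maternal). As a group, these genes are abundant in the fetus and placenta and are turned down in most tissues after birth. RNA of the whole culture was counted, so which parental copy made the RNA was not measured.

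In the deposited table, H19 spans chr7:142575529-142578143 and Igf2 spans chr7:142650766-142666816, both on the minus strand, with 72.6 kb between them. On the same chromosome, Cdkn1c lies 791.5 kb from Igf2. Dlk1 (chr12:109452823-109463336) and Meg3 (chr12:109541001-109571726) are both on the plus strand, 77.7 kb apart. The other members are Peg3 (chr7:6703892-6730421), Ndn (chr7:62348277-62349928), Mest (chr6:30723547-30748455), Grb10 (chr11:11930508-12038683) and Plagl1 (chr10:13090691-13131694). The submitters' processing notes name GRCm38 and mm10 as the build.

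H19, Mest, Igf2 and Meg3 also host microRNAs, small RNAs that pair with messages through the seed, bases 2 to 8. Their mature sequences from RefSeq (GRCm38.p6) are shown because they lie inside transcripts that were called lower at 3 µM with the culture as a block, with the seed in capitals. In order, they lie in an H19 exon (chr7:142577112-142577133), a Mest intron (chr6:30741314-30741336), an Igf2 intron (chr7:142654932-142654952) and a Meg3 exon (chr12:109563710-109563731).
mmu-miR-675-5p: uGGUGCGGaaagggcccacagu
mmu-miR-335-5p: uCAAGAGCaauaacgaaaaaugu
mmu-miR-483-3p: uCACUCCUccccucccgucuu
mmu-miR-770-5p: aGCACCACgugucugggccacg
No seed is shared among these 4, and counts of polyadenylated RNA do not measure the mature forms.

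The 250 bases before an annotated start were read from RefSeq (GRCm38.p6), with 15 such windows for 8 members and none found for H19 or Cdkn1c. The TCF/LEF core (CTTTGAT, or ATCAAAG on the other strand) was in 0 of the 15 windows, against 3.21% of all 32851 windows. A hexamer known from imprinted control regions, TGCCGC or its complement GCGGCA, is read by the zinc finger protein ZFP57 when methylated. It was in 4 of the 15 windows, from Meg3, Mest and Plagl1, against 8.68% of all windows. The Mest windows among them (chr6:30737800-30738049 and chr6:30737803-30738052) overlap almost fully and hold the same hexamers, so the 4 are not separate sites. Windows of Mest (chr6:30737800-30738049), Meg3 (chr12:109540746-109540995) and Dlk1 (chr12:109452573-109452822), all on the plus strand, are shown to set genes that fell together beside each other, with the hexamer in capitals.
Mest: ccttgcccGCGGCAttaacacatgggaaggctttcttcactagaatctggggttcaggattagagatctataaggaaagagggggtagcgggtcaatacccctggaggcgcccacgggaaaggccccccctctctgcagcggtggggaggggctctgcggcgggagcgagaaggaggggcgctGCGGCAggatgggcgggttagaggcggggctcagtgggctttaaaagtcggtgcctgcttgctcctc
Meg3: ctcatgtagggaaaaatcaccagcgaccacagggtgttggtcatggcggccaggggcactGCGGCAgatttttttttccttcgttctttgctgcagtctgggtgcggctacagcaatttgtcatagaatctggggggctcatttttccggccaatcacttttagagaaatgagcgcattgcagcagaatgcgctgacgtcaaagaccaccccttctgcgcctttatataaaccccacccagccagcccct
Dlk1: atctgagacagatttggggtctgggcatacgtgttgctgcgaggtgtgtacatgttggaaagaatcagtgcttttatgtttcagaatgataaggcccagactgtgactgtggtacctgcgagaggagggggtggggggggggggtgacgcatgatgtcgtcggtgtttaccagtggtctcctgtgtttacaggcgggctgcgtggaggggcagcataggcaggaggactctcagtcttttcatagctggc
A match describes the letters of the window and is not a binding site.

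At 3 µM, 5 of the 10 genes were lower than in DMSO (Plagl1, Mest, Ndn, Dlk1 and Igf2) and 0 were higher, in edgeR's quasi-likelihood test with Benjamini-Hochberg adjustment over all genes tested and a threshold of 0.05. This test called 57.5% of all genes at that dose, 27.7% as lower. With the culture (animal) as a block, 9 of the 10 were lower and Peg3 was not called, against 68.9% of all genes called and 34.8% called lower. At 1.5 µM, 2 genes (Plagl1 and Mest) were lower, where 27.3% of all genes were called and 11.8% were lower. The block called all 10 at that dose, 9 lower and Peg3 higher, against 46.7% of all genes, 24.3% called lower. At 1 µM, 0 were called with or without the block, against 0.242% and 5.61% of all genes. At that dose Plagl1 alone had an unadjusted p under 0.05 (0.0452), as did 1798 of all 15316 genes, and DESeq2 also called 0, with no adjusted p for Dlk1. The members' median log2 fold change was −0.52, −1.75 and −2.94 at 1, 1.5 and 3 µM, while that of all genes lay between −0.03 and 0. Scaling by library size alone moved all log2 changes at 3 µM by −0.20 and gave 5404 genes lower and 3395 higher in place of 4239 and 4575, and from 1.5 to 3 µM 3860 and 1050 in place of 1943 and 2601. The 3 doses share the same DMSO libraries.

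**Figure D1:**
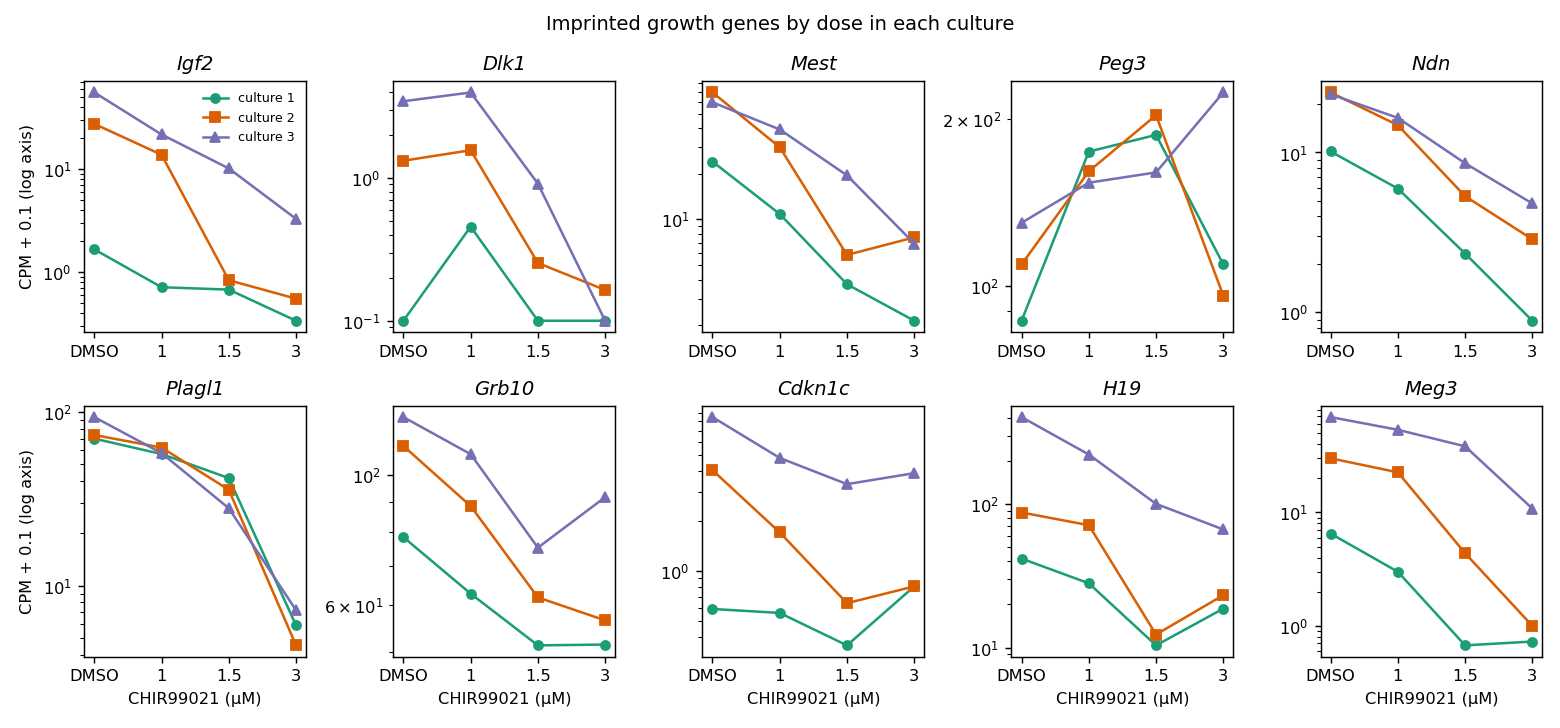
Level of each imprinted gene (CPM plus 0.1, log axis) against CHIR99021 dose, 1 point per library and 1 line per culture. The 3 lines of Plagl1 lie close together and drop to between 4.43 and 7.11 CPM at 3 µM, while those of Igf2, H19, Meg3 and Cdkn1c keep culture 3 on top at every dose. Peg3 is higher at 1 and 1.5 µM than in DMSO in all 3 cultures.

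Plagl1 encodes a zinc finger transcription factor that acts on a network of imprinted genes and restrains proliferation. Its level in cultures 1, 2 and 3 was 70.0, 73.4 and 93.1 CPM (counts per 1e+06 counts of the library) in DMSO and 57.0, 62.1 and 57.7 CPM at 1 µM. It was 41.4, 35.5 and 27.8 CPM at 1.5 µM and 5.80, 4.43 and 7.11 CPM at 3 µM. The DMSO libraries were all above those of every dose, and no dose group overlapped the next. The log2 fold change was −1.18 ± 0.187 (SE, n = 3 per group) at 1.5 µM, with an adjusted p of 0.00180 in edgeR's quasi-likelihood test. At 3 µM it was −3.77 ± 0.210 with an adjusted p of 1.58e-06, a level 13.6-fold lower, and within single cultures the fall was 11.8-, 16.2- and 12.9-fold. Plagl1 was also the only member called between neighbouring doses without the block, at −0.76 from 1 to 1.5 µM (edgeR adjusted p 0.0430) and −2.59 from 1.5 to 3 µM (edgeR adjusted p 7.56e-05). These 2 steps called 5.43% and 29.7% of all genes. The first of them was lost when any 1 of 9 libraries was left out, those being the 1 and 1.5 µM libraries of all 3 cultures, DMSO of cultures 1 and 2 and 3 µM of culture 1 (edgeR adjusted p 0.0517 to 0.149). The Plagl1 call at 3 µM was kept in all 23 alternatives run.

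Mest encodes a hydrolase-like membrane protein long used as a marker of growing fetal and fat tissue. In cultures 1, 2 and 3 its level was 24.0, 69.1 and 59.4 CPM in DMSO and 10.8, 29.9 and 39.3 CPM at 1 µM. It was 3.63, 5.72 and 19.5 CPM at 1.5 µM and 2.04, 7.51 and 6.83 CPM at 3 µM. Culture 1 was lowest in every group, and the DMSO libraries did not overlap those at 1.5 or 3 µM. The log2 fold change was −2.40 ± 0.746 at 1.5 µM (SE, edgeR adjusted p 0.0375, with the block 0.000456) and −3.21 ± 0.779 at 3 µM (edgeR adjusted p 0.00551). The call at 1.5 µM was lost when any 1 of 5 libraries was left out, namely DMSO of cultures 2 and 3, 1.5 µM of cultures 1 and 2, and 1 µM of culture 2 (edgeR adjusted p 0.0549 to 0.123). Without culture 3 at 1.5 µM the change was −3.42. Exons of Mest overlap those of Copg2 on the opposite strand, and whether counting used the strand is not given in the sources used here. Copg2 itself went the other way at 3 µM, by 0.39 on the log2 scale (edgeR adjusted p 0.00124).

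Ndn encodes necdin, a protein of the MAGE family that holds cells out of the cycle. Its levels in DMSO were 10.04, 23.7 and 23.1 CPM in cultures 1, 2 and 3, and those at 1 µM were 5.84, 14.7 and 16.4 CPM. They were 2.23, 5.23 and 8.46 CPM at 1.5 µM and 0.784, 2.76 and 4.69 CPM at 3 µM. Each culture was lower at each step, and the DMSO libraries lay above those at 1.5 and 3 µM without overlap. At 3 µM the log2 fold change was −2.77 ± 0.695 (SE, edgeR adjusted p 0.00656). At 1.5 µM it was −1.83 ± 0.661 with an edgeR adjusted p of 0.0642, and 0.000199 with the block. Without the block the edgeR adjusted p at 1.5 µM was 0.0492 when DMSO culture 1 was left out, 0.0399 without culture 1 at 3 µM and 0.0490 without culture 3 at 3 µM. The change at 3 µM was −3.41 without culture 3 at that dose. Leaving out culture 2 as a whole ended the calls of Ndn and Mest at 3 µM, with edgeR adjusted p of 0.127 and 0.0833, and that of Plagl1 at 1.5 µM, with 0.0591.

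Igf2 encodes insulin-like growth factor 2, the main fetal growth factor of the IGF family. Cultures 1, 2 and 3 had 1.56, 27.3 and 55.3 CPM in DMSO and 0.609, 13.6 and 21.5 CPM at 1 µM. They had 0.573, 0.730 and 10.02 CPM at 1.5 µM and 0.235, 0.449 and 3.17 CPM at 3 µM. The groups overlapped at every dose because DMSO culture 1, with 35 counts, was below culture 3 at 3 µM, with 46. Within cultures the level at 3 µM was 4.78-, 48.7- and 16.9-fold below DMSO on the log2 CPM scale with a prior count of 2. At 3 µM its log2 fold change was −4.43 ± 1.73 (SE, edgeR adjusted p 0.0486), and −4.55 with an adjusted p of 0.000476 with the block. Without the block this call was lost when any 1 of 8 libraries was left out, those being DMSO of cultures 2 and 3, 1 µM of cultures 2 and 3, 1.5 µM of cultures 1 and 2, and 3 µM of cultures 1 and 2 (edgeR adjusted p 0.05001 to 0.137), and without culture 2 or 3 as a whole (0.262 and 0.0548). The change was −3.49 without DMSO culture 3 and −6.31 without culture 3 at 3 µM. At 1.5 µM the change of −2.90 ± 1.57 was not called (edgeR adjusted p 0.194), but was with the block (0.00398). Exons of Igf2 overlap those of Gm49394 on the same strand and of Igf2os on the other, which had 0 to 2 counts.

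Dlk1 encodes a membrane-bound ligand-like protein of the Notch family that holds preadipocytes and other progenitors undifferentiated. It was close to the limit of detection, with 0, 12 and 62 counts in DMSO, 7, 30 and 68 at 1 µM, 0, 4 and 14 at 1.5 µM, and 0, 1 and 0 at 3 µM in cultures 1, 2 and 3. Culture 1 had 0 counts in DMSO and at 1.5 and 3 µM, so no fall was detectable there at this depth. At 1 µM every culture was above its DMSO library in CPM, and the log2 fold change of 0.31 was not called (edgeR adjusted p 0.961). Summed over libraries and scaled by depth, DMSO held 62.2 times the level at 3 µM (74 against 1 counts, 95% interval 10.8 to 2491, counting error only). Of the 74 counts 62 came from culture 3, and without that DMSO library, an alternative chosen after seeing the data, the ratio was 15.9 (12 against 1 counts, 2.35 to 679). The edgeR adjusted p at 3 µM was 0.0407, and 0.00125 with the block. Without the block this call was lost when any 1 of 7 libraries was left out, namely all 3 at 3 µM, DMSO of cultures 2 and 3, and 1 and 1.5 µM of culture 2 (edgeR adjusted p 0.0517 to 0.167), and without culture 2 or 3 as a whole (0.228 and 0.246).

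Meg3 is a long noncoding RNA made from the maternal copy of the Dlk1 domain. Its level in cultures 1, 2 and 3 was 6.40, 29.9 and 69.0 CPM in DMSO and 2.89, 22.4 and 53.3 CPM at 1 µM. It was 0.573, 4.26 and 38.1 CPM at 1.5 µM and 0.627, 0.898 and 10.7 CPM at 3 µM. Every culture was lower at 3 µM than in DMSO, but culture 3 at 3 µM stayed above culture 1 in DMSO. The log2 fold change of −3.10 ± 1.61 (SE) at 3 µM did not pass the test (edgeR adjusted p 0.123) and was −3.64 with an adjusted p of 0.000389 with the block. At 1.5 µM it was −1.30 ± 1.48 (SE, edgeR adjusted p 0.544), and −2.04 with an adjusted p of 0.00836 with the block. Within cultures 1, 2 and 3 the change in log2 CPM (prior count 2) was −3.25, −2.77 and −0.86 at 1.5 µM. It was −3.14, −4.89 and −2.68 at 3 µM. Fits that left out a single library had no block, so their groups held different sets of animals. Without the DMSO library of culture 3 the change was −0.37 at 1.5 µM and −2.17 at 3 µM (edgeR adjusted p 0.899 and 0.314). Without the 1.5 µM library of culture 3 it was −3.80 at 1.5 µM (edgeR adjusted p 0.129). Without the 3 µM library of culture 3 the change at 3 µM was −5.51 with an edgeR adjusted p of 0.0470, and without culture 3 as a whole −4.53 with 0.0354. Rian, a noncoding RNA of the same domain and one of the 3 genes nearest to Meg3 in pattern, had −3.37 at 3 µM (edgeR adjusted p 0.0505, with the block 3.23e-05).

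H19 is a long noncoding RNA and restrains growth in the embryo. Its level in cultures 1, 2 and 3 was 41.7, 87.5 and 406.3 CPM in DMSO and 28.0, 71.4 and 222.5 CPM at 1 µM. It was 10.2, 12.2 and 100.6 CPM at 1.5 µM and 18.6, 23.1 and 66.7 CPM at 3 µM. Cultures 1 and 2 were lowest at 1.5 µM, whereas culture 3 was lowest at 3 µM, and the groups overlapped DMSO at all 3 doses. The log2 fold change was −2.13 ± 1.16 at 1.5 µM (SE, edgeR adjusted p 0.199, with the block 0.000703) and −2.31 ± 1.17 at 3 µM (edgeR adjusted p 0.116, with the block 0.000693). Within cultures 1, 2 and 3 the change in log2 CPM (prior count 2) was −2.01, −2.83 and −2.01 at 1.5 µM. It was −1.16, −1.92 and −2.61 at 3 µM. Fits that left out a single library had no block, so their groups held different sets of animals. Leaving out the DMSO library of culture 3 shrank the change to −0.69 at 1.5 µM and −0.87 at 3 µM (edgeR adjusted p 0.707 and 0.543). Leaving out the 1.5 µM library of culture 3 gave −3.98 at 1.5 µM (edgeR adjusted p 0.0470), and leaving out its 3 µM library gave −3.11 at 3 µM (edgeR adjusted p 0.0889). Leaving out culture 3 as a whole gave −2.49 and −1.63 with edgeR adjusted p of 0.0154 and 0.0302. The log2 ratio of H19 to Igf2 counts was higher at 3 µM than in DMSO in every culture, at 6.08 against 4.72, 5.59 against 1.68 and 4.38 against 2.88 in cultures 1, 2 and 3. At 3 µM these ratios rested on 3, 7 and 46 counts of Igf2, and at 1.5 µM culture 1 was below its DMSO library, at 4.09.

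Grb10 and Cdkn1c are both known as brakes on growth, Grb10 as an adaptor that binds the insulin and IGF1 receptors and Cdkn1c as the cyclin-dependent kinase inhibitor p57. Grb10 was at 78.3, 112 and 125 CPM in DMSO, and the lowest and highest of its 1.5 µM libraries were 51.1 and 75.1 CPM, below all of DMSO. At 3 µM cultures 1, 2 and 3 had 51.3, 56.4 and 91.6 CPM, and culture 3 overlapped DMSO. The change was the smallest among the members below DMSO, with a log2 fold change of −0.75 ± 0.279 at 1.5 µM (SE, edgeR adjusted p 0.0711) and −0.66 ± 0.279 at 3 µM (edgeR adjusted p 0.0639). With the block the adjusted p was 0.000533 and 0.000303. Without DMSO culture 1 the edgeR adjusted p was 0.0426 at 1.5 µM and 0.0336 at 3 µM, and without culture 3 at 3 µM it was 0.0332 and 0.0118. Without culture 3 as a whole it was 0.0461 and 0.0176. Cdkn1c had 0.489, 3.96 and 8.40 CPM in DMSO and 0.706, 0.706 and 3.80 CPM at 3 µM, so that culture 1 was higher with the inhibitor (9 counts against 11 in the larger DMSO library). Its log2 fold change was −1.67 ± 1.23 at 1.5 µM (SE, edgeR adjusted p 0.337, with the block 0.00942). At 3 µM it was −1.29 ± 1.22 (SE, edgeR adjusted p 0.382, with the block 0.0314).

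Peg3 encodes a zinc finger protein that takes part in cell death and in growth of the placenta and fetus. It was the only member above DMSO at 3 µM by the fitted value, and also at 1.5 µM. Its level in cultures 1, 2 and 3 was 86.4, 109 and 130 CPM in DMSO and 174, 161 and 153 CPM at 1 µM. It was 187, 203 and 160 CPM at 1.5 µM and 109, 95.9 and 223 CPM at 3 µM. The 1 and 1.5 µM libraries were all above DMSO, whereas at 3 µM cultures 1 and 2 were back within the DMSO range. Its log2 fold change was 0.76 ± 0.283 at 1.5 µM (SE, edgeR adjusted p 0.0714, with the block 0.0380) and 0.40 ± 0.282 at 3 µM (edgeR adjusted p 0.2504). Without the 3 µM library of culture 3 the edgeR adjusted p at 1.5 µM was 0.00523, and the change at 3 µM was −0.10. Without culture 3 as a whole the edgeR adjusted p at 1.5 µM was 0.00349. Scaling by library size alone left Peg3 at 0.84 and 0.22 at 1.5 and 3 µM.

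**Figure D2:**
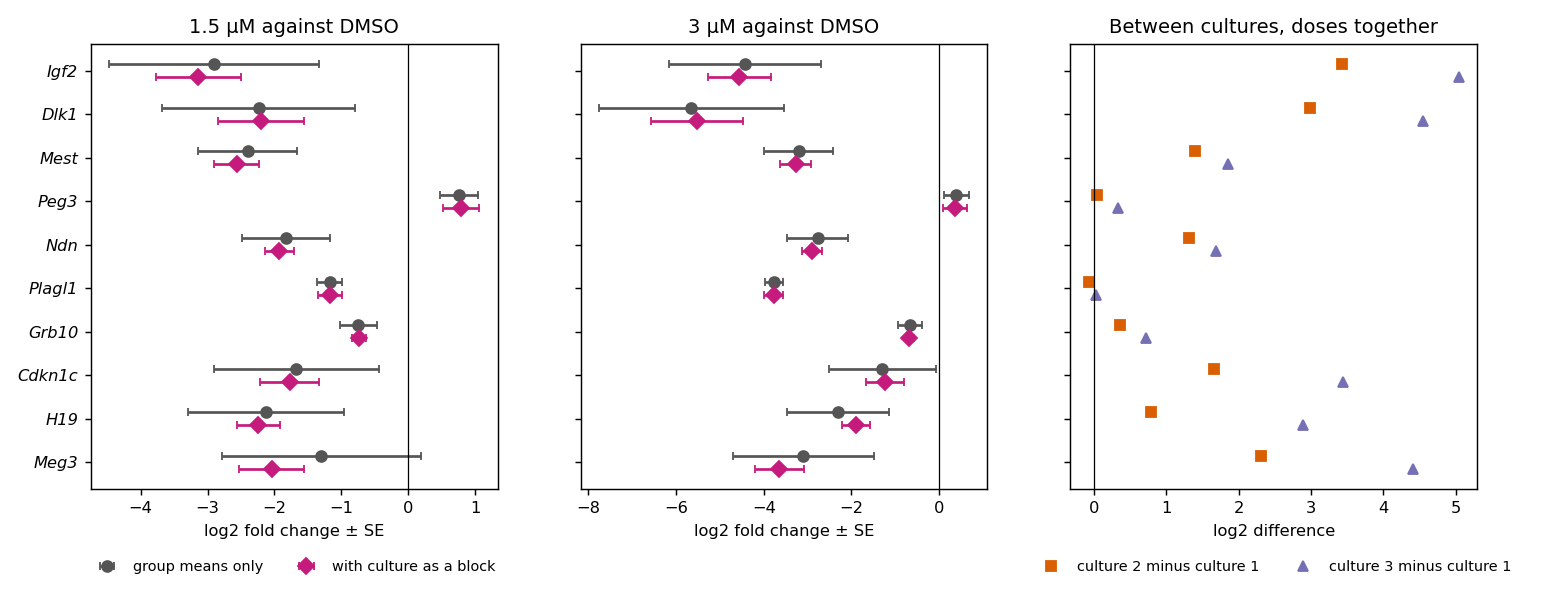
Left and middle panels show the log2 fold change with its SE at 1.5 and 3 µM against DMSO, from group means only and with the culture as a block. The right panel shows the log2 difference of cultures 2 and 3 from culture 1 over all doses. The block moved Meg3 at 1.5 µM from −1.30 to −2.04 and shortened the bars of the members that differ between cultures, while Plagl1 and Peg3 had short bars in both.

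Counted by overlap, 3 of the 10 members had all 3 µM libraries below all DMSO libraries (Mest, Plagl1 and Ndn), against 29.9% of all genes. At 1.5 µM this held for 4 (Mest, Grb10, Plagl1 and Ndn), against 20.7%, and at 1 µM for Plagl1 alone, against 8.27%. Paired within cultures, 7 members were lower at 3 µM in all 3 cultures, against 39.0% of all genes. The exceptions were Dlk1 (0 counts on both sides in culture 1), Cdkn1c and Peg3. Between neighbouring doses the block called 6 members from 1 to 1.5 µM (H19, Dlk1, Mest, Grb10, Plagl1 and Ndn), where it called 21.9% of all genes. From 1.5 to 3 µM it called 3 (Plagl1, Ndn and Meg3), where it called 46.7% of all genes.

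The libraries of cultures 1, 2 and 3 carry the tags med, min and max in the sample titles, and the labels do not state what the tags mean. Whether they mark a difference other than the animal cannot be told apart from the culture. In a model with group and culture, 8 of 10 members differed between cultures (edgeR's quasi-likelihood F test), against 28.8% of all genes, and the exceptions were Peg3 (adjusted p 0.455) and Plagl1 (edgeR adjusted p 0.861). Culture 3 was above culture 1 for each of the 8, against 16.7% of all genes called with that direction. The difference was 32.9-fold for Igf2, 23.3-fold for Dlk1, 21.2-fold for Meg3, 10.9-fold for Cdkn1c and 7.42-fold for H19. The gap was smaller for Mest (3.59-fold), Ndn (3.20-fold) and Grb10 (1.65-fold). A difference in dose slope between cultures was called for 0 members and 0 of all genes, with 1230 of 15316 genes at an unadjusted p under 0.05. DESeq2's likelihood ratio test called it for 0 members and 231 genes.

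Per kilobase of exon, H19 was the most abundant member in DMSO at 72.6 ± 80.7 CPM per kb (SD, n = 3). Mest (12.9 ± 6.01), Grb10 (11.6 ± 2.68), Plagl1 (10.1 ± 1.60) and Peg3 (8.14 ± 1.63) followed. Ndn (5.12 ± 2.08), Igf2 (4.90 ± 4.70), Cdkn1c (2.101 ± 1.95), Meg3 (1.94 ± 1.75) and Dlk1 (0.269 ± 0.299) were lower. Neighbours in this order overlapped over the 3 libraries, except Peg3 and Ndn. At 3 µM the order was H19 (14.7 ± 10.8), Peg3 (10.7 ± 5.25) and Grb10 (7.31 ± 2.41), with Mest next at 1.38 ± 0.756.

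The 3 genes nearest to each member in pattern, by Pearson's r of log2 CPM over the 12 libraries, differed between members. These r values describe libraries that share doses, cultures and depth. Ndn was nearest to Sgce (r = 0.999), Cpeb1 and Peg10 (r = 0.992), and both Sgce and Peg10 are imprinted genes of 1 domain on another chromosome. Igf2 was nearest to genes of the muscle contractile apparatus, Myh3 (r = 0.977), Ttn and Tnnt3. Mest was nearest to Cd93 (r = 0.991), known from endothelial cells, Tspan6 and Ildr2, and Plagl1 to Cx3cl1 (r = 0.991), Ppp1r3c and Ggt1. H19 was nearest to Spon2 (r = 0.961), Abcc9 and Ednrb, and Meg3 to Cnrip1 (r = 0.982), Fn1 and Rian. Dlk1 was nearest to Gfra2 (r = 0.973), Pld4 and Slc9a9, Grb10 to Rassf8 (r = 0.991), Tbc1d16 and Fkbp9, and Cdkn1c to Wipf1 (r = 0.983), Txndc5 and Hpse. The highest r for Peg3 was 0.891, with Fam129c, followed by Ep400 and Foxj3. Among the members, r of Peg3 with the others ran from −0.25 to 0.09, and r of Igf2 with H19 was 0.916.

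Summed markers of cells other than epithelium were lower at 3 µM than in DMSO in every culture. Summed over 12 fibroblast markers, the level was 4806, 12163 and 27199 CPM in DMSO in cultures 1, 2 and 3, and 315, 1357 and 5447 CPM at 3 µM, so culture 3 was highest and culture 1 lowest, as for Igf2, H19 and Meg3. Of these markers 2 were lower at 3 µM by edgeR's test (Postn, −3.10, and Dpt, −1.58 on the log2 scale) and 11 with the block. At that dose 27.7% of all genes were called lower, and 34.8% with the block. Of 8 endothelial and pericyte markers 7 fell at 3 µM, among them Rgs5 (−4.68), Tek (−3.73) and Kdr (−3.23), and their sum went from 289 to 612 CPM in DMSO down to 32.3 to 106 CPM. Of 5 immune markers tested 4 fell, among them C1qb (−4.78), Ptprc (−4.40) and C1qa (−4.25), with the sum going from 46.6 to 277 CPM in DMSO down to 11.3 to 53.6 CPM, and the T cell marker Cd3e averaged 0.5 counts. Of 7 adipocyte and muscle markers tested 5 fell, among them Adipoq (−6.12), Plin1 (−5.58) and Lep (−5.51). The sum of that list went from 3208 to 8126 CPM in DMSO down to 70.0 to 229 CPM at 3 µM. In both groups culture 2 was highest and culture 3 lowest, unlike the fibroblast and immune sums. The adipocyte gene Fabp4 of that list averaged 27571 counts, and the muscle genes Acta1 and Ckm 637 and 33.6. The sum therefore does not show the culture order of the muscle genes. Pax7 of that list averaged 1.33 counts. In bulk RNA, fewer cells of a type and less RNA per cell cannot be told apart. The part of these cell types in the fall of the imprinted genes was not tested.

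**Figure D3:**
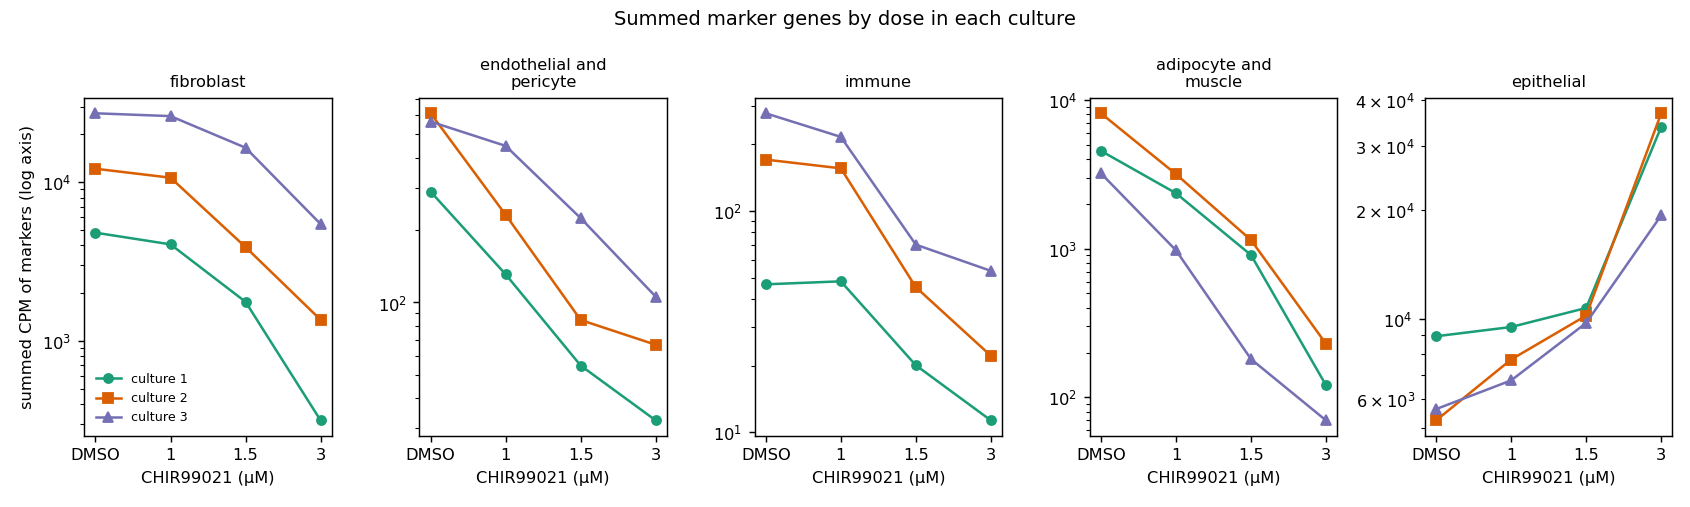
Summed CPM (log axis) of 5 marker lists against CHIR99021 dose, 1 line per culture. The 4 lists of other cell types are lower at 3 µM than in DMSO in every culture. The fibroblast and immune sums keep the order culture 3, 2, 1 at every dose. The epithelial sum is higher, going from between 5239 and 8941 CPM in DMSO to between 19271 and 36857 CPM at 3 µM. Of its 14 genes 4 rose and 6 fell at that dose by edgeR's test, with a median log2 fold change of −0.31.

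Summed over 14 epithelial markers, DMSO held 8941, 5239 and 5630 CPM in cultures 1, 2 and 3. The 12 fibroblast markers held 4806, 12163 and 27199 CPM there, above the epithelial sum in cultures 2 and 3. The lists differ in genes and length, so these sums do not give the shares of the cell types. Of the 14 epithelial markers 4 rose at 3 µM, led by the basal keratins Krt17 (4.88), Krt14 (3.84) and Krt5 (3.42 on the log2 scale). Another 6 fell, led by Acta2 (−4.55), Pgr (−3.28) and Krt19 (−2.11). The WNT feedback gene Axin2 rose by 4.92 at 3 µM (log2, edgeR adjusted p 0.000147), and 4 of 9 tested genes of a WNT target list rose while Lgr5 fell by 9.34. For both lists the background at that dose was 57.5% of all genes called, 4575 of 15316 as higher and 27.7% as lower.

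Among 65 other genes listed as imprinted, 60 were in the table and 52 were tested. At 3 µM 11 rose and 15 fell by edgeR's test, 26 of 52 in all, where 57.5% of all genes were called, with a median log2 fold change of −0.36 (14 and 22 with the block). Those that fell most, among genes with at least 50 counts on average, were Peg10 (−4.88), a gene of retroviral origin needed for the placenta, Slc22a3 (−4.54), an organic cation transporter, and Sgce (−2.68), a sarcoglycan. Those that rose most were Tnfrsf23 (2.46), a decoy death receptor, Slc38a4 (2.30), an amino acid transporter, and Sfmbt2 (2.08), a Polycomb group protein. With the block 36 of the 52 were called, against 68.9% of all genes. At 1.5 µM, 2 rose and 8 fell, 10 of 52 against 27.3% of all genes, and with the block 2 rose and 18 fell, against 46.7%. At 1 µM edgeR called 0 against 0.242% of all genes, and 2 with the block against 5.61%.

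**Figure D4:**
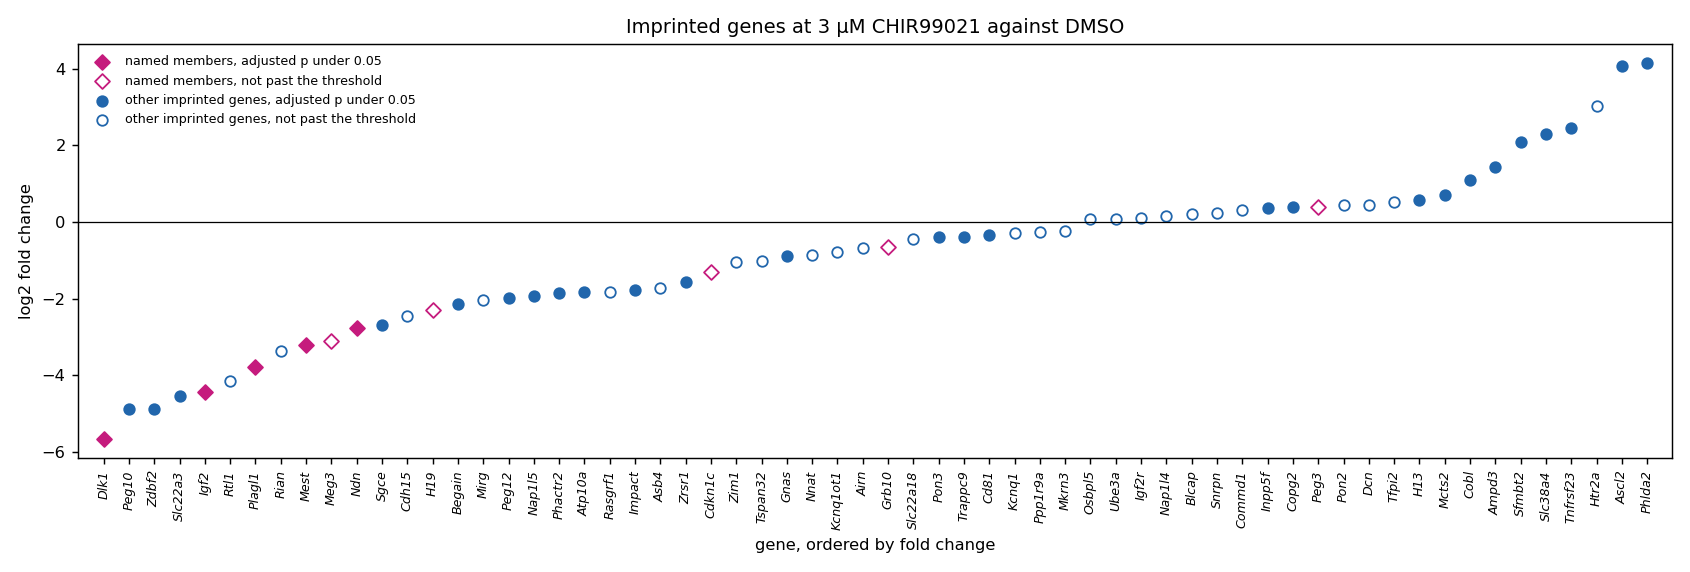
Log2 fold change at 3 µM against DMSO for the 10 members (diamonds) and 52 other imprinted genes (circles), ordered by size, with filled symbols for an adjusted p under 0.05 in edgeR's test without the block. Dlk1 stands at the lower end at −5.65, where a fitted value rests on few counts, and 9 of the 10 members are below 0.

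The IGF pathway around Igf2 was followed in a list of 15 genes. At 3 µM 7 fell and 1 rose, 8 of 15 called where 57.5% of all genes were called, 27.7% as lower. With the block 8 fell and 3 rose, 11 of 15 called against 68.9% of all genes, 34.8% as lower. The share called in either direction lay near the background, while the share called lower was above it. At 1.5 µM 6 of the 15 fell and 0 rose by edgeR's test, where 27.3% of all genes were called and 11.8% were lower. At 3 µM those that fell most were the binding proteins Igfbp4 (−3.67 ± 0.601) and Igfbp5 (−3.23 ± 0.264) and the growth factor Igf1 (−2.68 ± 0.803, SE on the log2 scale). Among the receptors at 3 µM, Igf1r was at 0.11 (edgeR adjusted p 0.486) and Igf2r, itself imprinted, at 0.10 (edgeR adjusted p 0.675), neither called. In contrast, the insulin receptor gene Insr fell by 0.90 (edgeR adjusted p 0.000987). Of the receptor substrates at 3 µM, Irs1 fell by 2.09 (edgeR adjusted p 0.000170) and Irs2 was at 0.24 (edgeR adjusted p 0.337).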

How the data were processed

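Per the submitters' processing notes, TopHat2 2.1, Bowtie 1.1.0, HTSeq and DESeq2 were used with GRCm38/mm10. Libraries were stranded and polyA-selected per the labels' protocols, and the strand setting of the counting is not given in the sources used here. The authors deposited raw counts per Ensembl gene, and all values here come from those counts. The authors' log2 table was not used. Of 25210 identifiers, 24902 are in GENCODE M21, 99.996% of them on the same chromosome.

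Genes passing filterByExpr (15316) were fitted with edgeR 4.0.16 (R 4.3.3, TMM scaling, glmQLFit with robust estimation, two-sided glmQLFTest). The model held 1 mean for each group over all 12 libraries, with Benjamini-Hochberg adjustment over all genes. CPM use TMM-scaled library sizes. The script was tested on simulated data. The replicate number is the animal, and deviations from the group means correlated in all 18 same-number pairs (0.177 to 0.840, median 0.505, against −0.212 in 36 other pairs). Deviations cancel within a group, so positive same-number pairs pull the other pairs down, and those are no independent baseline. The values with the replicate block therefore stand beside the results they change. Alternatives were DESeq2 1.42.0, other scalings, no filter, thinning to 10129264 counts, and leaving out libraries or cultures. Replicates differed by more than sampling noise (chi-square per degree of freedom at least 12.8).

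The 10 members and all lists were chosen with earlier results of these data known. Genes outside the members were named by rule. These were the 3 nearest by r with at least 50 counts on average, and from each list up to 3 called genes per direction at 3 µM, plus genes of the members' domains. Igf1r, Igf2r, Insr, Irs1, Irs2, Fabp4, Acta1 and Ckm were named after their values were seen. Intervals cover counting error only.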

Additional observations from a re-analysis of the deposited data

How the results depend on the processing

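With the replicate block, 10, 9, 6 and 3 members were called for 1.5 and 3 µM against DMSO, 1.5 against 1 µM and 3 against 1.5 µM, in place of 2, 5, 1 and 1. Over all genes it called 859 at 1 µM, 7147 at 1.5 µM, 3351 from 1 to 1.5 µM and 7149 from 1.5 to 3 µM, in place of 37, 4177, 831 and 4544. Thinning with the replicate block gave 10, 9, 6 and 2 members. From 1 to 1.5 µM, library size only, no filter and thinning each gave 0 members. No filter gave 1 member at 1.5 µM and 3 at 3 µM, and DESeq2 gave 5 at 1.5 µM. Leaving out libraries or cultures, members called ranged from 0 to 5 at 1.5 µM, 1 to 6 at 3 µM, 0 to 1 from 1 to 1.5 µM and 1 to 2 from 1.5 to 3 µM. It kept 0 at 1 µM, 8 between cultures and 0 for the slope. The lowest values at 1.5 and 3 µM (0 and 1) came without culture 2. These omissions turned the sign of uncalled log2 changes at 1 µM for H19 (−1.85 to 0.71), Meg3 (−1.47 to 0.52), Dlk1 (−0.73 to 1.80) and Cdkn1c (−2.04 to 0.047), of Meg3 from 1.5 to 3 µM (−4.20 to 0.70) and of Peg3 at 3 µM (−0.10 to 0.62). All of these turns came from fits without the block that left out a single library, so the groups compared held different sets of animals. Paired within cultures, H19, Meg3 and Cdkn1c were lower at 1 µM than in DMSO in all 3, and Dlk1 in 0. The cause of the turns was not tested. Fitting only the groups compared gave 0 genes at 1 µM and 2852 from 1.5 to 3 µM, no filter 494 from 1 to 1.5 µM, and DESeq2 485 at 1 µM, 1646 from 1 to 1.5 µM and 231 for the slope. Depth limits Dlk1 in culture 1, where 0 counts in DMSO left no fall to detect.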

Other observations

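Of 15 genes tested from a list of factors that set or keep imprints, 7 rose and 2 fell at 3 µM by edgeR's quasi-likelihood test, 60.0% against 57.5% of all genes called. With the block 8 rose and 3 fell, 11 of 15 against 68.9% of all genes. Those that rose most were Uhrf1 (2.74 ± 0.272, SE on the log2 scale), which brings the maintenance methyltransferase to newly copied DNA, Dnmt3l (1.58 ± 0.407), a cofactor of the de novo methyltransferases, and Ezh2 (1.19 ± 0.137), the Polycomb methyltransferase. Those that fell were Tet1 (−2.44 ± 0.357), which oxidises methylated cytosine, and Dnmt3a (−0.53 ± 0.103). Zfp57 was at −1.94 without passing the test (edgeR adjusted p 0.101, with the block 0.00159). DNA methylation was not measured.

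Phlda2 and Ascl2, imprinted genes near Cdkn1c on chromosome 7, had the largest increases among the other imprinted genes tested, 4.15 ± 0.528 and 4.07 ± 0.974 on the log2 scale at 3 µM (SE, edgeR adjusted p 0.000112 and 0.00496), at 15.3 and 9.75 counts per library on average. Both were named after their values were seen.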
